A study of Homo sapiens with 15 samples.

Results

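The genes described here are the matrix metalloproteinases (MMP), the ADAM and ADAMTS proteases and the tissue inhibitors of metalloproteinases (TIMP) that were detected in U87MG cells. A row of the deposited table was a member when its symbol was MMP, ADAM, ADAMTS or TIMP followed by a number and its mean was at least 5 raw counts in at least 1 of the 5 groups. This rule gave 36 members of 25737 rows: 10 MMP, 11 ADAM, 12 ADAMTS and 3 TIMP genes. The symbols matched 67 rows, and the other 31 lay below the limit. Just outside it were ADAMTS2, MMP11 and ADAM32, whose highest group means were 4.67, 4.0 and 3.67 counts. Just inside were ADAM28 at 5.0, MMP13 at 6.0 and MMP12 and ADAMTS14 at 7.67 counts.

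RNA was taken from U87MG, an established human glioblastoma line, after 24 h of lentivirus, in 5 groups of 3 libraries. The control group received control lentivirus and carries GFP in its label, and the other groups received ID1, ID2, ID3 or ID4 lentivirus and are labelled as overexpressing that gene. All groups therefore share the transduction, and all 4 ID groups are compared with the same 3 GFP libraries. The labels give no separate cultures, clones or passages, so p-values measure the spread between these libraries, which may be technical. QuantSeq libraries count reads at the 3′ ends of polyadenylated transcripts, so counts were not divided by transcript length.

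Metalloproteinases of these families hold a zinc ion in the catalytic site and are made as inactive precursors. MMPs cut collagens, laminins and other matrix proteins, ADAMs release the extracellular parts of membrane proteins such as growth factor precursors and Notch, and ADAMTS proteases cut proteoglycans and procollagens. TIMPs bind the active site and block it, and TIMP2 also brings the MMP2 precursor to MMP14 at the cell surface, where it is activated. In glioma these proteases are known for invasion into brain tissue. ID proteins are helix-loop-helix proteins without a DNA-binding region, and they keep E proteins from binding the E-box sequence.

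Total counts were 11089044 to 15148979 per library, and a floor of 3 counts was worth 0.196 to 0.27 CPM (counts per 1e6 counts of the scaled library total), which covers counting error only. Of the markers chosen for this line, VIM was at 3530 to 4810 CPM, FN1 at 5890 to 15300 CPM and CD44 at 504 to 612 CPM, while GFAP and S100B, which mark astrocytes, did not exceed 0.339 and 0.294 CPM. The summed level of this list was 10800 to 11500 CPM in GFP, 13200 to 14000 in ID1 and 19400 to 20800 in ID2. In ID3 it was 18100 to 20100 CPM and in ID4 14200 to 15400 CPM. FN1 had by far the widest range of these markers, so the sum follows mainly FN1. The lists for oligodendrocytes, leukocytes, endothelial cells and epithelial cells summed to at most 6.08 CPM in any library, and nearly all of the leukocyte sum was CSF1R at 2.59 to 6.01 CPM. The neuron list reached 180 to 267 CPM, nearly all of it TUBB3, with RBFOX3 at most at 0.0742 CPM. ID1 was at 247 ± 2.74 CPM (SD, n = 3) in the libraries labelled ID1 against 346 ± 8.02 in GFP, and ID2 at 45.5 ± 1.62 in those labelled ID2 against 86.1 ± 2.0. The counts of ID1 and ID2 thus go against these labels. ID2 was also below GFP in the libraries labelled ID1, ID3 and ID4, at 34.0, 46.2 and 36.0 CPM. A vector transcript without the gene's own 3′ end would not be counted, but whether the vectors lack it was not tested. Groups are named here by their labels. ID3 was at 310 ± 12 against 222 ± 6.16 CPM, but also at 291 ± 27.2 in the libraries labelled ID2, which overlapped with those labelled ID3, and ID4 at 223 ± 12.1 against 0.0791 ± 0.084 CPM. The main axis of variation within groups held 37.1% of that variance over 9210 genes. The lowest-scoring library of each group was GFP library 2 (-0.174), ID1 library 1 (-0.204), ID2 library 3 (-0.666), ID3 library 2 (-0.213) and ID4 library 3 (-0.244). ID2 library 3 lay farthest out. In GFP and ID3 the highest-scoring library, at 0.178 and 0.249, was as far from 0 as the lowest or farther. The axis was computed from these same libraries, so leaving out the lowest-scoring ones trims the spread of genes that follow it.

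Levels differed among the 5 groups in 21 of the 32 members tested, and 43.4% of all 13665 tested genes did so. The tests are edgeR quasi-likelihood tests with Benjamini-Hochberg adjustment over all tested genes and a threshold of 0.05. The other 4 members, MMP12, MMP13, ADAM28 and ADAMTS9, were left out by the filter of a mean of 5 counts over all libraries. With a filter of a mean of 5 counts in 1 group all 36 were tested and 23 differed among the groups, and with no filter 26 did. Against GFP, 17, 19, 14 and 12 of 36 were then called in ID1, ID2, ID3 and ID4 with the former, and 16, 20, 16 and 13 with the latter. The shares of all genes called with these other filters are not given here, so these member counts have no background to be read against. A further 4, ADAM7, ADAMTS3, ADAMTS7 and ADAMTS14, were tested although their mean was under 5 counts in at least 1 group, so counts over the tested members describe those that passed this filter.

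Against GFP, the members that changed were mostly higher. In ID1, 12 members rose and 4 fell, and 5 of the 16 changed more than 2-fold. Among all tested genes 21.6% changed, 11.8% upward and 9.81% downward, and 3.4% changed more than 2-fold. In ID2, 12 members rose and 4 fell, 8 of them more than 2-fold, where 33.8% of all genes changed, 17.5% upward and 16.3% downward, and 4.91% more than 2-fold. In ID3, 11 rose and 2 fell, 4 of them more than 2-fold, beside 27.4% of all genes, 14.5% upward and 13% downward, and 3.36% more than 2-fold. In ID4, 9 rose and 3 fell, 3 of them more than 2-fold, beside 20.6% of all genes, 11.4% upward and 9.18% downward, and 2.8% more than 2-fold. The median log2 fold change over the 32 members was 0.18 in ID1, 0.32 in ID2, 0.25 in ID3 and 0.19 in ID4, where the median of all genes lay between -0.01 and 0.0. ADAM7 was at 0 counts in GFP and at a mean of 2.0 and 0.333 counts in ID2 and ID3. With ADAM7 set to its counting bound in ID1 and ID4 and to a log2 value of 0 in ID2 and ID3, those medians were 0.18, 0.24, 0.18 and 0.19. Without the 5 lowest-scoring libraries, 14, 15, 14 and 12 members changed in ID1, ID2, ID3 and ID4. The shares of all genes without those libraries are not given here.

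MMP2, MMP3, MMP19, ADAM12, ADAM19 and TIMP2 rose in all 4 ID groups, and MMP16 and TIMP4 fell in all 4. No member rose in 1 group and fell in another. For 11 members no comparison with GFP passed the threshold in this fit: ADAM9, ADAM15, ADAM17, ADAM22, ADAMTS3, ADAMTS6, ADAMTS7, ADAMTS12, ADAMTS14, ADAMTS16 and TIMP1. Since the 4 comparisons share the GFP libraries, a gene that is high or low in those libraries moves all 4 together.

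**Figure D1:**
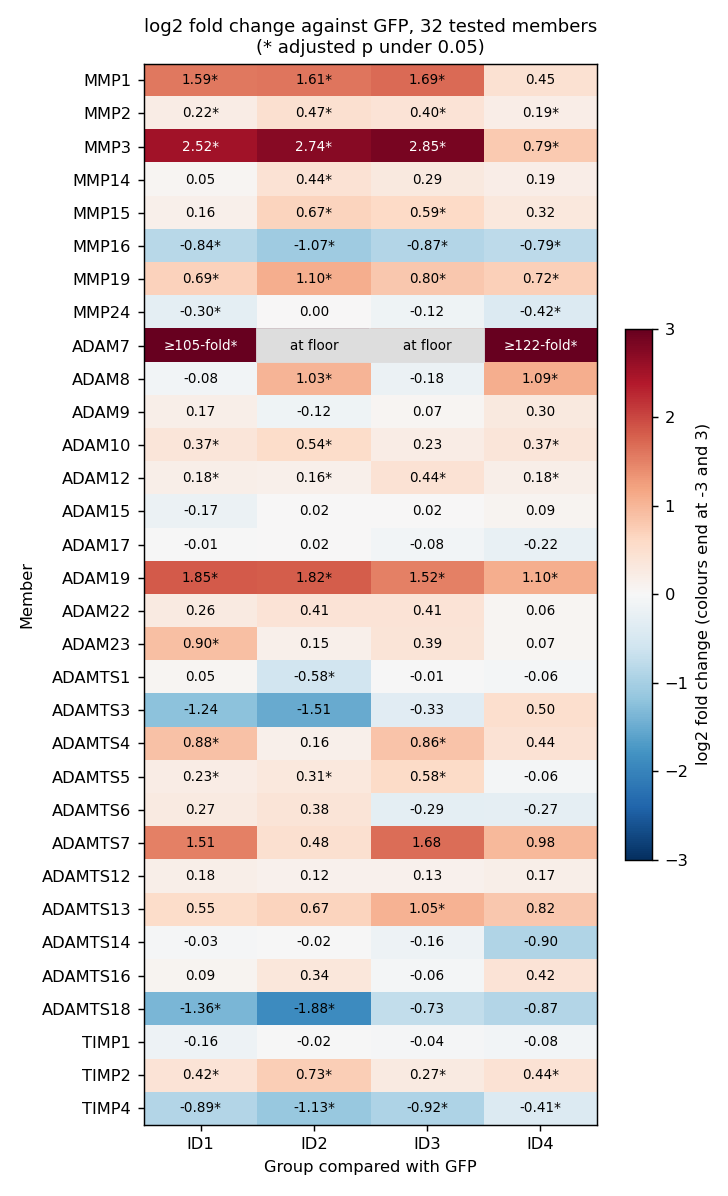
Each row is 1 of the 32 tested members and each column an ID group, with the fitted log2 fold change against GFP printed and coloured (red higher, blue lower) and a star where the adjusted p was under 0.05. MMP3 reached 2.85 in ID3 and 0.79 in ID4, and ADAM7 is given as a bound of at least 105-fold in ID1 and 122-fold in ID4 and as at the counting floor in ID2 and ID3.

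MMP3 (stromelysin-1), which cuts proteoglycans, laminin and fibronectin and activates other MMP precursors, had the largest change of the tested MMPs. It lies on chromosome 11 of GRCh37 from 102706532 to 102714340 on the minus strand. Its level was 11.1, 11 and 9.67 CPM in the GFP libraries and 56.8, 58.0 and 67.5 CPM in ID1. It was 66.0, 64.0 and 82.3 CPM in ID2, 82.8, 75.4 and 71.0 CPM in ID3, and 18.4, 18.9 and 17.8 CPM in ID4. Every library of every ID group was above the GFP libraries, and the ID4 libraries lay between GFP and the other 3 groups with no overlap. The log2 fold change against GFP was 2.52 in ID1 (standard error 0.11, adjusted p = 4.82e-14), 2.74 in ID2 (0.11, adjusted p = 5.44e-15), 2.85 in ID3 (0.11, adjusted p = 5.73e-15) and 0.79 in ID4 (0.12, adjusted p = 4.27e-05). Tested directly, ID4 was lower than ID1, ID2 and ID3, with log2 differences of -1.73, -1.95 and -2.06 (adjusted p = 5.32e-11, 2.26e-12 and 1.17e-12).

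MMP1 (interstitial collagenase), which lies next to MMP3 from 102660132 to 102668891, was far lower in count. The GFP libraries held 4, 6 and 13 counts of MMP1. The ID1 libraries held 23, 28 and 27, the ID2 libraries 18, 28 and 33, the ID3 libraries 30, 30 and 24, and the ID4 libraries 13, 12 and 6. As in MMP3, the libraries of ID1, ID2 and ID3 did not overlap with GFP, whereas those of ID4 did. MMP1 rose by 1.59 in ID1 (standard error 0.39, adjusted p = 0.00505), 1.61 in ID2 (0.39, adjusted p = 0.00259) and 1.69 in ID3 (0.39, adjusted p = 0.00215) on the log2 scale. Without GFP library 3 these values were 2.25, 2.27 and 2.35, and without GFP library 1 they were 1.2, 1.22 and 1.30, still called. In ID4 the value was 0.45 (0.46, adjusted p = 0.56), and ID4 was lower than ID2 and ID3, with log2 differences of -1.16 and -1.24 (adjusted p = 0.032 and 0.0314).

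The same stretch of chromosome 11 held 2 members below the filter on mean counts. MMP12 (macrophage elastase) had 1, 1 and 0 counts in GFP and 10, 3 and 10 in ID1. It had 1, 7 and 7 counts in ID2, 9, 4 and 8 in ID3 and 2, 3 and 2 in ID4. In GFP and ID4 every library was at or under the floor of 3 counts. MMP13 (collagenase-3) was found only in ID2, with 3, 5 and 10 counts, and at 0 in the other 12 libraries, each of which allows up to 0.196 to 0.27 CPM. The annotated order along the chromosome is MMP7, MMP20, MMP27, MMP8, MMP10, MMP1, MMP3, MMP12 and MMP13. The first 5 were below the limit with 0 to 13 counts over all 15 libraries. Of 7 other tested genes within 1 Mb of MMP3, 1, 1, 1 and 0 rose and 0, 3, 1 and 2 fell in ID1, ID2, ID3 and ID4, with a median log2 fold change from -0.1 to 0.02. WTAPP1, a pseudogene annotated on the other strand over the 3′ ends of MMP1 and MMP3, averaged at most 0.049 CPM in any group. Whether the authors' counting used strand is not stated.

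**Figure D2:**
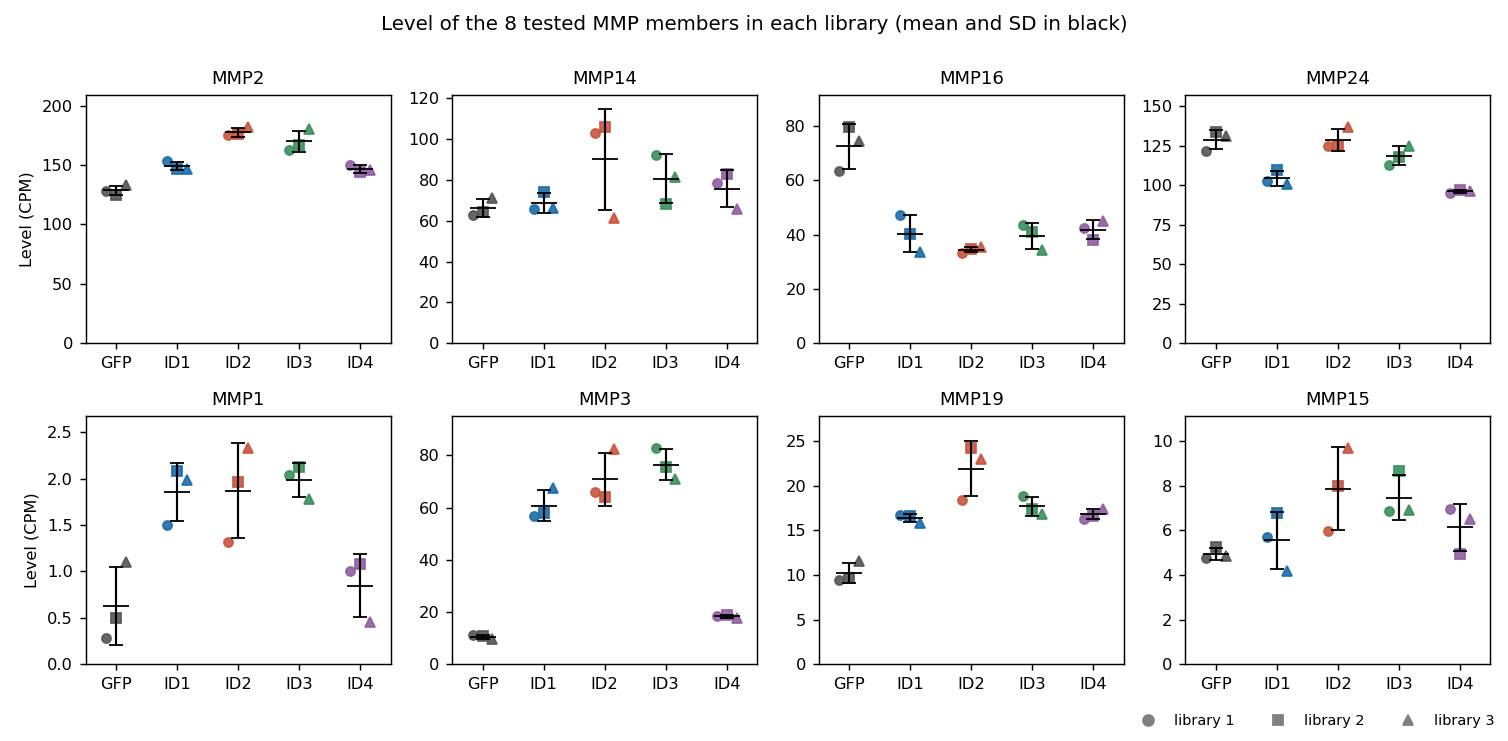
Level in CPM (vertical axis, linear, from 0) of the 8 tested MMP members in every library, by group, with the mean and SD of 3 libraries in black and the marker shape giving the library number. MMP3 was 76.4 ± 5.97 CPM in ID3, 18.4 ± 0.547 in ID4 and 10.6 ± 0.801 in GFP, and MMP16 was lower in every ID library than in every GFP library.

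MMP2 (gelatinase A), which cuts type IV collagen, took 33.2% of the summed MMP level over all 15 libraries, in counts not divided by length. MMP24 took 24.9%, and in GFP both were alike, at 128 ± 4.17 and 129 ± 5.97 CPM (SD, n = 3). It was at 128, 125 and 133 CPM in the GFP libraries, 153, 147 and 147 in ID1, 175, 176 and 182 in ID2, 163, 167 and 180 in ID3 and 150, 144 and 146 in ID4. No ID library overlapped with GFP, but the differences were small. The log2 fold change was 0.22 in ID1 (standard error 0.05, adjusted p = 0.00429), 0.47 in ID2 (0.05, adjusted p = 2.89e-07), 0.40 in ID3 (0.05, adjusted p = 4.07e-06) and 0.19 in ID4 (0.05, adjusted p = 0.0119). The calls in ID1 and ID4 were lost without the 5 lowest-scoring libraries, and the one in ID4 also without GFP library 2 or ID4 library 1. Over 16 alternatives the adjusted p was 0.00134 to 0.0688 in ID1 and 0.00693 to 0.0856 in ID4.

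MMP14 (MT1-MMP), the membrane-bound activator of the MMP2 precursor, was at 63.0, 64.5 and 71.3 CPM in GFP and 103, 106 and 61.4 CPM in ID2. It was at 65.9, 74.2 and 66.2 CPM in ID1, 92.5, 68.2 and 81.4 CPM in ID3 and 78.6, 82.9 and 65.7 CPM in ID4. ID2 overlapped with GFP through its library 3. On the log2 scale the test gave 0.44 in ID2 (standard error 0.14, adjusted p = 0.0181) and 0.05, 0.29 and 0.19 in ID1, ID3 and ID4 (adjusted p = 0.848, 0.144 and 0.389). Without the 5 lowest-scoring libraries, MMP14 was higher by 0.64 in ID2, 0.37 in ID3 and 0.26 in ID4 (adjusted p = 5.89e-07, 0.00115 and 0.0262). In ID1 it was higher by 0.07 (adjusted p = 0.648). MMP14 follows the axis that was used to choose those libraries, so these p-values are no independent support. The ID2 call was lost under DESeq2 and without GFP library 1, GFP library 2, ID2 library 1 or ID2 library 2, with adjusted p from 2.13e-08 to 0.123 over 16 alternatives.

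MMP19, a secreted MMP, rose in all 4 groups. Its level was 9.39, 9.7 and 11.5 CPM in GFP, 16.7, 16.6 and 15.8 in ID1, 18.4, 24.2 and 23 in ID2, 18.8, 17.4 and 16.8 in ID3 and 16.3, 16.6 and 17.4 in ID4. The GFP libraries overlapped with no ID library, and ID2 was above ID1 and ID4 without overlap. ID3 was also called lower than ID2, although their libraries overlapped (log2 difference -0.31, adjusted p = 0.0477). MMP19 changed on the log2 scale by 0.69 in ID1 (standard error 0.11, adjusted p = 0.000106), 1.10 in ID2 (0.11, adjusted p = 5.83e-08), 0.80 in ID3 (0.11, adjusted p = 1.36e-05) and 0.72 in ID4 (0.12, adjusted p = 7.77e-05). MMP19 lies on chromosome 12 from 56229217 to 56236750, and of 43 other tested genes within 1 Mb, 15, 26, 17 and 21 rose and 0 fell in ID1, ID2, ID3 and ID4, with median log2 fold changes of 0.2, 0.28, 0.24 and 0.25. The median over the 661 tested genes of chromosome 12 was 0.15 to 0.19. TMEM198B, annotated over the 3′ end of MMP19 on the other strand, rose by 0.57 to 0.70. The part of neighbours and overlap in the MMP19 values was not tested.

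The other membrane-type MMPs moved in different directions. MMP16 (MT3-MMP), on chromosome 8, fell in all groups. It was at 63.3, 79.6 and 74.5 CPM in the GFP libraries and between 33.4 and 47.1 CPM in all 12 ID libraries, with no overlap. The log2 fold change was -0.84 in ID1, -1.07 in ID2, -0.87 in ID3 and -0.79 in ID4 (standard error 0.11 each, adjusted p = 2.99e-06, 5.53e-08, 1.66e-06 and 8.77e-06). None of the ID groups was called different from another for this gene. MMP24 (MT5-MMP), known from neurons, was at 122, 134 and 131 CPM in GFP, 103, 110 and 101 in ID1 and 95.1, 97.0 and 96.6 in ID4, and it fell in both, with log2 fold changes of -0.30 and -0.42 (standard error 0.06 each, adjusted p = 0.000608 and 1.32e-05). In ID2 it was at 125, 125 and 137 CPM and in ID3 at 113, 118 and 125 CPM, overlapping with GFP (adjusted p = 0.968 and 0.14). MMP24OS is annotated on the other strand over its 3′ end. MMP15 (MT2-MMP), at 4.96 ± 0.274 CPM in GFP, rose to 7.87 ± 1.87 in ID2 and 7.47 ± 1.03 in ID3 (SD, n = 3, log2 0.67 and 0.59, adjusted p = 0.00949 and 0.0264), and was at 5.55 ± 1.29 in ID1 and 6.14 ± 1.05 in ID4 (adjusted p = 0.636 and 0.303).

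Summed over the 10 MMP members, the level was 423 ± 18.4 CPM in GFP, 448 ± 8.87 in ID1, 535 ± 5.77 in ID2, 513 ± 13 in ID3 and 403 ± 6.65 in ID4 (SD, n = 3). Every library of ID1, ID2 and ID3 was above every GFP library, in ID1 narrowly (438 CPM at the lowest against 437 at the highest), and the sum of ID4 overlapped with GFP.

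Promoters, from 250 bases before to 50 bases after the transcription start, are shown for 4 members that changed more than 2-fold against GFP and had an entry in the table used, to show whether an E-box lies in them. ADAMTS13, which also met this rule but whose call was lost in 8 of 16 alternatives, is not shown. Its promoter held 0 E-boxes. The E-box CANNTG, which reads the same on both strands, is in capitals, because ID proteins act on factors that bind it. Sequences are from RefSeq on GRCh38.p14, 5′ to 3′ on the gene's strand.
ADAM19, chr5:157575726-157576025, minus strand: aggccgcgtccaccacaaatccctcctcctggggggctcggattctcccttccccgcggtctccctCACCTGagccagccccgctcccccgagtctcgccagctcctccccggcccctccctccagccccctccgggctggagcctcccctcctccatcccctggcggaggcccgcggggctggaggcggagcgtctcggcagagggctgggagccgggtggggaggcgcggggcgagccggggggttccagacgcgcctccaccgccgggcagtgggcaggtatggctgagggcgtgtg
ADAM8, chr10:133276819-133277118, minus strand: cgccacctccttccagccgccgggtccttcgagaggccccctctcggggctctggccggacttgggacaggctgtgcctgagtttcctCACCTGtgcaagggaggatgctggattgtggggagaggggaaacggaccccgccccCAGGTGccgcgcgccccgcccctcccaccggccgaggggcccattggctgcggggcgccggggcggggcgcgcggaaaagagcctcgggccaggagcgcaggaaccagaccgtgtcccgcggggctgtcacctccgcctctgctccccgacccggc
ADAMTS18, chr16:77434985-77435284, minus strand: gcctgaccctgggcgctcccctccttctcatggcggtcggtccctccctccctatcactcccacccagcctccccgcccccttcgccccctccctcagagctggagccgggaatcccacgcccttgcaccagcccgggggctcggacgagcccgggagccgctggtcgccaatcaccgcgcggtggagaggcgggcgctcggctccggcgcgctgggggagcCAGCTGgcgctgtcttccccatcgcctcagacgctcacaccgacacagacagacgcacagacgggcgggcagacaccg
TIMP4, chr3:12158863-12159162, minus strand: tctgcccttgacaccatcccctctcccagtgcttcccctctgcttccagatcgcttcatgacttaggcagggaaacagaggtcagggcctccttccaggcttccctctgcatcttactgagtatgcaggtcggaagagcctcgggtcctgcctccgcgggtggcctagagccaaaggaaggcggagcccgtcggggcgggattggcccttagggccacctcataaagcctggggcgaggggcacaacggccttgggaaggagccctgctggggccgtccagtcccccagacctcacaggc
ADAM19 held 1 E-box (CACCTG, first base at -184), ADAM8 held 2 (CACCTG at -162 and CAGGTG at -106), ADAMTS18 held 1 (CAGCTG at -28) and TIMP4 held 0. Of the 20 members with an entry, 13 (65.0%) held an E-box, against 68.7% of all 35116 promoters of 300 bases. The AP-1 sequence TGACTCA, read on both strands, was in 0 of the 20, against 4.95% of all promoters. These matches describe letters in the window and no binding was measured. MMP1, MMP2, MMP3, MMP12, MMP13, MMP16, MMP19, ADAM7, ADAM9, ADAM28, ADAMTS1, ADAMTS4, ADAMTS5, ADAMTS9, ADAMTS16 and TIMP2 had no entry.

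ADAM12, a membrane and secreted ADAM of growing muscle, cartilage and tumours, accounted for 72.5% of the summed ADAM level. It lies on chromosome 10 from 127700950 to 128077046. It was at 802, 882 and 853 CPM in GFP, 973, 998 and 905 in ID1, 899, 921 and 1010 in ID2, 1120, 1220 and 1120 in ID3 and 981, 908 and 982 in ID4. ID3 stood above all other groups without overlap. The rise against GFP was 0.44 in ID3 (standard error 0.06, adjusted p = 2.47e-06) and 0.18, 0.16 and 0.18 in ID1, ID2 and ID4 (0.06 each, adjusted p = 0.0224, 0.0311 and 0.025). ID3 was also higher than ID1 and ID2 by 0.26 and 0.29 (adjusted p = 0.0041 and 0.00113), and ID4 minus ID3 was -0.27 (adjusted p = 0.00329). The 3 smaller calls did not survive some omissions. The call in ID1 was lost without GFP library 1, ID1 library 1 or ID1 library 2, and that in ID4 without GFP library 1 or 3 or ID4 library 1 or 3. The call in ID2 was lost without GFP library 1 or 3, without ID2 library 3, without the 5 lowest-scoring libraries and with only the 2 groups in the fit. Over 16 alternatives the adjusted p was 0.00335 to 0.114 in ID1, 0.00789 to 0.14 in ID2 and 0.00402 to 0.118 in ID4.

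ADAM19, whose product sheds neuregulin, had the largest rise among the ADAMs found in GFP cells. It was at 1.54, 1.67 and 1.53 CPM in GFP (18 to 22 counts), 4.97, 6.09 and 6.17 in ID1, 4.41, 5.59 and 6.79 in ID2, 3.73, 5.6 and 4.3 in ID3 and 3.08, 3.15 and 3.94 in ID4. Every ID library exceeded every GFP library. On the log2 scale ADAM19 rose by 1.85 in ID1 (standard error 0.22, adjusted p = 1.79e-06), 1.82 in ID2 (0.23, adjusted p = 1.21e-06), 1.52 in ID3 (0.23, adjusted p = 3.22e-05) and 1.10 in ID4 (0.25, adjusted p = 0.0022). ID4 was lower than ID1 and ID2, with log2 differences of -0.75 and -0.72 (adjusted p = 0.0275 and 0.0133). CYFIP2, annotated over the 3′ end of ADAM19 on the other strand, was at 2.52 CPM in GFP and 4.69 in ID1, and its log2 fold changes were 0.88, 0.24, 0.52 and 0.67 (adjusted p = 0.01, 0.52, 0.129 and 0.0601). How reads were divided between these genes was not tested.

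ADAM7 and ADAM8 separated the ID groups from each other. ADAM7, an ADAM without an active protease site that is known from the epididymis, had 0 counts in all 3 GFP libraries. It had 309, 374 and 372 counts in ID1 and 379, 320 and 388 in ID4, but 4, 0 and 2 in ID2 and 0, 0 and 1 in ID3. Its level was 25.1 ± 4.25 CPM in ID1 and 29.1 ± 0.306 in ID4 (SD, n = 3). Set against a floor of 3 counts per GFP library, ADAM7 was at least 105-fold higher in ID1 and at least 122-fold higher in ID4. The edgeR test against GFP, which is not a test of these bounds, gave adjusted p = 1.06e-13 and 6.46e-14. ADAM7 met the member rule and the test filter only through its counts in ID1 and ID4, so these p-values are no independent support. ADAM7-AS1 is annotated over the 3′ end of ADAM7 and of ADAM28 on the other strand. Of 7 other tested genes within 1 Mb, 1 rose and 1 fell in ID1, and 0 rose and 1 fell in ID4.

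ADAM8, known from leukocytes and tumour cells, was at 4.83, 4.6 and 3.9 CPM in GFP, 4.77, 3.34 and 4.48 in ID1 and 3.8, 4.18 and 3.86 in ID3. It was at 8.75, 9.78 and 8.77 CPM in ID2 and 10.3, 9.27 and 8.94 in ID4. All ID2 and ID4 libraries lay above all others. ADAM8 rose by 1.03 in ID2 (standard error 0.15, adjusted p = 1.18e-05) and by 1.09 in ID4 (0.15, adjusted p = 1.22e-05), whereas ID1 and ID3 differed from GFP by -0.08 and -0.18 (0.17 each, adjusted p = 0.792 and 0.482). Between the ID groups, ID2 exceeded ID1 by 1.11 and ID4 exceeded ID3 by 1.27 (adjusted p = 1.47e-05 and 6.28e-06). Of the 4 leukocyte markers, CSF1R was at 2.59 to 6.01 CPM, PTPRC at most at 0.543, AIF1 at 0.0742 and CX3CR1 at 0. Their sum was 2.93 to 4.48 CPM in GFP, 4.08 to 4.34 in ID1, 4.33 to 5.38 in ID2, 5.46 to 6.08 in ID3 and 5.08 to 5.78 in ID4, and its part in the ADAM8 values was not tested. Near ADAM8 at the end of chromosome 10, 0 of 10 tested genes rose in any group and 4 to 6 fell, beside a median of -0.18 to -0.09 over the chromosome.

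**Figure D3:**
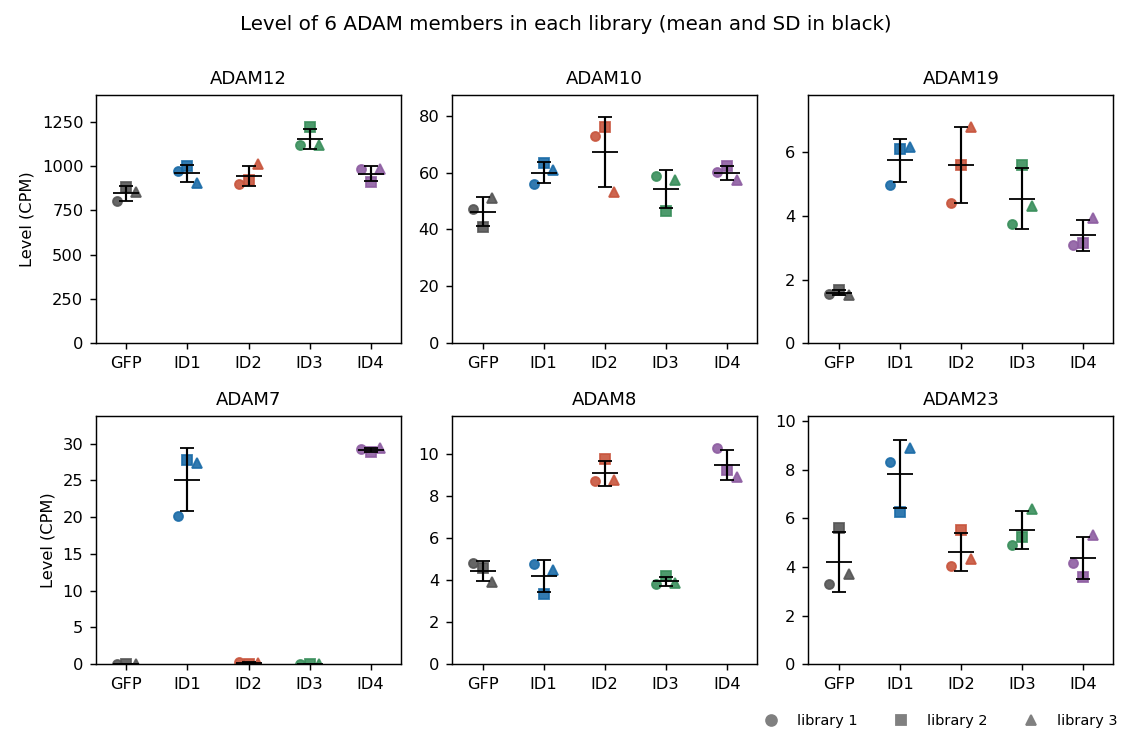
Level in CPM (vertical axis, linear, from 0) of 6 ADAM members in every library, by group, with the mean and SD of 3 libraries in black and the marker shape giving the library number. ADAM7 was at 25.1 ± 4.25 CPM in ID1 and 29.1 ± 0.306 in ID4 and near 0 elsewhere, while ADAM8 was high in ID2 and ID4 (9.1 ± 0.588 and 9.52 ± 0.726).

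The main sheddases are ADAM10, which cuts Notch and amyloid precursor protein, and ADAM17, which releases TNF and EGF receptor ligands. ADAM10 rose in ID1, ID2 and ID4. ADAM10 was at 47.1, 40.8 and 51.0 CPM in GFP, 55.8, 63.2 and 60.8 in ID1, 72.8, 76.0 and 53.3 in ID2, 58.7, 46.5 and 57.5 in ID3 and 60.1, 62.4 and 57.5 in ID4. ID3 overlapped with GFP and the other groups did not. The log2 fold change was 0.37 in ID1 (standard error 0.11, adjusted p = 0.018), 0.54 in ID2 (0.11, adjusted p = 0.000506), 0.23 in ID3 (0.11, adjusted p = 0.137) and 0.37 in ID4 (0.11, adjusted p = 0.019). The ID1 call was lost without GFP library 2, ID1 library 2 or ID1 library 3 and the ID4 call without GFP library 2, ID4 library 1 or ID4 library 2, with adjusted p of 4.38e-05 to 0.109 and 4.77e-05 to 0.113 over 16 alternatives. In ID3 ADAM10 was called with no filter (adjusted p = 0.021), without ID3 library 2 (log2 0.33, adjusted p = 0.0442) and without the 5 lowest-scoring libraries (adjusted p = 0.0239), and its adjusted p reached 0.43 without GFP library 2. ADAM10 lies on chromosome 15 from 58881008 to 59041990. Of 12 tested neighbours within 1 Mb, 5, 5, 5 and 6 rose and 0 fell, and the median over the 409 tested genes of chromosome 15 was 0.34, 0.25, 0.32 and 0.37 in ID1, ID2, ID3 and ID4, against 0.37, 0.54, 0.23 and 0.37 for ADAM10. The part of this shift in the ADAM10 values was not tested. ADAM17 was at 19.5 ± 0.554 CPM in GFP and 16.7 to 19.8 in the ID groups (adjusted p = 0.125 to 0.967).

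ADAM9, on chromosome 8, ranged from 49.2 to 153 CPM and passed no test against GFP (log2 0.17, -0.12, 0.07 and 0.30, standard error 0.25 to 0.26). Its level followed the within-group axis: it was lowest in GFP library 2 (74.4 CPM), ID1 library 1 (89.8), ID2 library 3 (49.2), ID3 library 2 (71.4) and ID4 library 3 (86.5) of their groups. A loading as large as its own was found in 0.228% of the genes in the axis. For ADAMTS1, MMP14 and ADAM10 this share was 1.09%, 1.97% and 4.3%. Leaving out those 5 libraries therefore trims the spread of these genes, and their p-values without them are no independent support. Without those 5 libraries ADAM9 was higher in ID4 by 0.33 (adjusted p = 0.00535) and not called in the other groups. With all 15 libraries and no filter on low values, ADAM9 was called in ID4 (adjusted p = 0.000142, against 0.454 with the filter). Its ID4 libraries, at 136, 153 and 86.5 CPM, overlapped with GFP at 107, 74.4 and 122 CPM. Why the filter moved this p-value was not tested. ADAM15 was at 153 ± 11.4 CPM in GFP and 136 to 162 CPM in the ID groups, and no difference passed the test (adjusted p = 0.131 to 0.887).

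**Figure D4:**
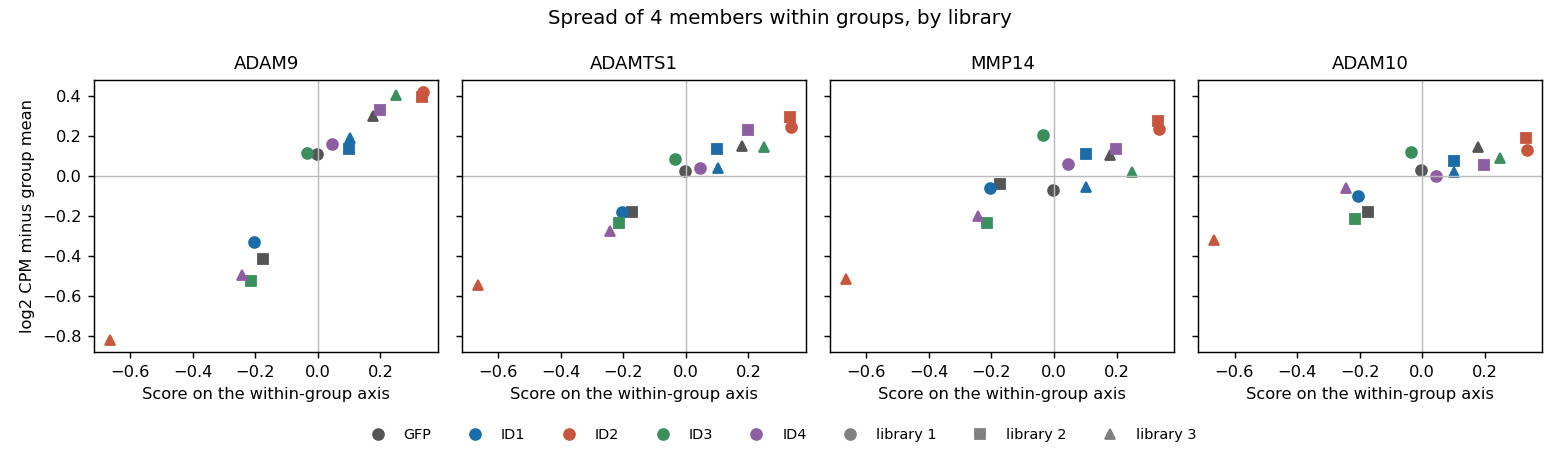
Each point is 1 library, with its score on the main axis of variation within groups (horizontal) and the log2 CPM of the gene minus the mean of its group (vertical). ADAM9, ADAMTS1 and ADAM10 were lowest in the lowest-scoring library of each group, and so was MMP14 except in GFP, with ID2 library 3 (-0.666) farthest out.

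ADAM22 and ADAM23 lack protease activity and bind the secreted protein LGI1 at synapses. ADAM23 rose in ID1 from 4.21 ± 1.23 to 7.81 ± 1.4 CPM (SD, n = 3, log2 0.90, standard error 0.20, adjusted p = 0.00219) and was at 4.36 to 5.5 CPM in the other ID groups. ID1 was also above ID2 and ID4, whose log2 differences from it were -0.75 and -0.83 (adjusted p = 0.00897 and 0.0152). ADAM22 was at 3.83 ± 0.616 CPM in GFP and 5.11 ± 0.564 in ID2 (adjusted p = 0.0676). ADAM28 held 1 to 2 counts per library in GFP and 4 to 6 in ID4 and was below the filter. The sum over the 11 ADAM members was 1180 ± 45.6 CPM in GFP, 1340 ± 41.6 in ID1, 1300 ± 25.2 in ID2, 1500 ± 21.6 in ID3 and 1370 ± 26.6 in ID4, with every ID library above every GFP library.

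Of 11 tested ADAMTS members, 3 (27.3%) were called in each of ID1, ID2 and ID3, a share near the 21.6%, 33.8% and 27.4% of all genes. In ID4 the smallest adjusted p of the 11 was 0.111. ADAMTS5, a main aggrecanase of cartilage, was at 49.4, 51.4 and 47.1 CPM in GFP, 59.3, 56.1 and 58.1 in ID1, 56.9, 59.7 and 66.2 in ID2, 78.1, 73.6 and 69.2 in ID3 and 48.6, 44.8 and 48.6 in ID4. ID4 overlapped with GFP, and ID3 was above all other groups. It rose by 0.23 in ID1 (standard error 0.07, adjusted p = 0.0197), 0.31 in ID2 (0.07, adjusted p = 0.00143) and 0.58 in ID3 (0.07, adjusted p = 1.17e-06), and the value in ID4 was -0.06 (0.07, adjusted p = 0.64). ID4 was lower than ID1, ID2 and ID3, with log2 differences of -0.29, -0.36 and -0.64 (adjusted p = 0.0159, 0.000759 and 1.66e-06). The ID1 call was lost without GFP library 3, ID1 library 1 or ID1 library 3, with adjusted p of 0.0124 to 0.0854 over 16 alternatives.

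ADAMTS1, which cuts versican and aggrecan, took 66.5% of the ADAMTS sum and was called against GFP in ID2. It was at 186, 161 and 203 CPM in GFP and 140, 145 and 81.1 CPM in ID2. In ID1 it was at 166, 207 and 194 CPM, in ID3 at 192, 154 and 200 and in ID4 at 179, 204 and 144. The ID2 libraries lay below GFP, and library 3, lowest on the within-group axis, was the lowest of all 15. ADAMTS1 fell in ID2 by a log2 value of -0.58 (standard error 0.15, adjusted p = 0.00508), and of -0.44 without the 5 lowest-scoring libraries (adjusted p = 1.8e-05). Without ID2 library 3 alone it was -0.36, and over 16 alternatives it ranged from -0.73 to -0.36 and stayed called. Between ID groups, ID2 minus ID1 was -0.63, ID3 minus ID2 was 0.57 and ID4 minus ID2 was 0.52 (adjusted p = 0.00601, 0.0142 and 0.0218). ADAMTS1 and ADAMTS5 lie next to each other on chromosome 21, from 28208074 to 28217728 and from 28290241 to 28339407.

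ADAMTS18, a less studied secreted member, was low in count and fell in ID1 and ID2. It had 20, 15 and 16 counts in GFP, 11, 4 and 7 in ID1, 7, 3 and 5 in ID2, 9, 14 and 11 in ID3 and 9, 12 and 6 in ID4. No ID group overlapped with GFP in CPM. The log2 fold change was -1.36 in ID1 (standard error 0.39, adjusted p = 0.0147) and -1.88 in ID2 (0.42, adjusted p = 0.00126), and the values in ID3 and ID4 were -0.73 and -0.87 (adjusted p = 0.144 and 0.111). The ID1 call was lost without ID1 library 2 (log2 -1.1, adjusted p = 0.0768, and 0.0124 to 0.0768 over 15 alternatives).

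ADAMTS4, also an aggrecanase, rose from 0.884 ± 0.195 CPM in GFP to 1.65 ± 0.38 in ID1 and 1.63 ± 0.253 in ID3 (SD, n = 3, log2 0.88 and 0.86, standard error 0.30 each, adjusted p = 0.0409 and 0.0379). These calls rest on 15, 8 and 11 counts in GFP, 26, 27 and 17 in ID1 and 21, 27 and 21 in ID3. Alternatives are not given for ADAMTS4. ADAMTS13, which cuts von Willebrand factor, had 15, 6 and 13 counts in GFP and 35, 28 and 16 in ID3, or 1.05 on the log2 scale (standard error 0.39, adjusted p = 0.0479). That call was lost in 8 of 16 alternatives, among them each GFP library left out and ID3 library 1 or 2 left out, with adjusted p from 0.0166 to 0.228. ADAMTS6 was at 10.3 ± 2.33 CPM in GFP and was not called in ID2 (log2 0.38, adjusted p = 0.0783). It was called there with no filter (adjusted p = 0.0205) and without GFP library 3 (0.0266), ID2 library 3 (0.0401) or the 5 lowest-scoring libraries (0.0269), with adjusted p up to 0.383 without GFP library 1. Between ID groups, ID3 at 8.38 ± 1.53 CPM was lower than ID2 at 13.4 ± 1.36 CPM (log2 -0.67, adjusted p = 0.00829). ADAMTS9 had 3, 0 and 0 counts in GFP and 10, 7 and 9 in ID3 and was below the filter. ADAMTS12 was at 7.9 to 9.0 CPM in all groups (adjusted p = 0.485 to 0.612). The sum over the 12 ADAMTS members was 259 ± 19.5 CPM in GFP and 214 ± 32.8 to 282 ± 22.4 CPM in the ID groups.

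Of the inhibitors, TIMP2 rose, TIMP4 fell and TIMP1 passed no test. TIMP2, on chromosome 17 from 76849059 to 76921469, held 92.5% of the TIMP sum. It was at 440, 455 and 468 CPM in GFP, 578, 639 and 603 in ID1, 721, 774 and 759 in ID2, 511, 552 and 580 in ID3 and 609, 617 and 621 in ID4. All ID libraries were above all GFP libraries, and ID2 was above the other ID groups. TIMP2 rose on the log2 scale by 0.42 in ID1 (standard error 0.05, adjusted p = 2.61e-06), 0.73 in ID2 (0.05, adjusted p = 2.27e-10), 0.27 in ID3 (0.05, adjusted p = 0.000407) and 0.44 in ID4 (0.05, adjusted p = 1.52e-06). ID2 exceeded ID1 by 0.31, and the log2 differences of ID3 and ID4 from ID2 were -0.46 and -0.29 (adjusted p = 0.000193, 2.23e-06 and 0.000391). Of 17 tested neighbours within 1 Mb, at most 3 rose in any group.

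TIMP4, the inhibitor best known from heart and brain, was at 14.9, 10.9 and 12 CPM in GFP and 7.19, 6.31 and 6.91 in ID1. It was at 5.22, 5.8 and 6.3 CPM in ID2, 7.06, 7.24 and 5.63 in ID3 and 10.7, 9.09 and 8.64 in ID4. The ID4 libraries lay between GFP and the other groups. TIMP4 fell, with log2 fold changes of -0.89 in ID1 (standard error 0.14, adjusted p = 7.34e-05), -1.13 in ID2 (0.15, adjusted p = 2.46e-06), -0.92 in ID3 (0.14, adjusted p = 4.02e-05) and -0.41 in ID4 (0.14, adjusted p = 0.039). ID4 was higher than ID2 and ID3 by 0.72 and 0.51 (adjusted p = 0.00183 and 0.0291). The ID4 call was lost in 7 of 16 alternatives, among them DESeq2, limma, the 5 lowest-scoring libraries left out, and the omission of GFP library 1 or 3 or ID4 library 2 or 3, with adjusted p from 0.0229 to 0.24. SYN2, annotated over the 3′ end of TIMP4 on the other strand, averaged at most 0.242 CPM in any group.

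TIMP1 was at 41.4 ± 2.78 CPM in GFP, 37.1 ± 3.59 in ID1, 40.9 ± 3.86 in ID2, 40.2 ± 4.17 in ID3 and 39.2 ± 1.09 in ID4 (SD, n = 3, adjusted p = 0.237 to 0.902). TIMP3 was below the limit, with 2 counts over all 15 libraries. The level of TIMP2 divided by that of MMP2 in the same library was 3.44 to 3.64 in GFP, 3.77 to 4.34 in ID1, 4.11 to 4.4 in ID2, 3.14 to 3.31 in ID3 and 4.07 to 4.29 in ID4. ID3 lay below GFP and the other groups above it. TIMP2 divided by MMP14 gave another order, with 6.56 to 7.05 in GFP, 8.61 to 9.1 in ID1, 7.01 to 12.4 in ID2, 5.52 to 8.11 in ID3 and 7.45 to 9.45 in ID4, so that ID2 and ID3 overlapped with GFP. These are ratios of mRNA counts and no protein or activity was measured.

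**Figure D5:**
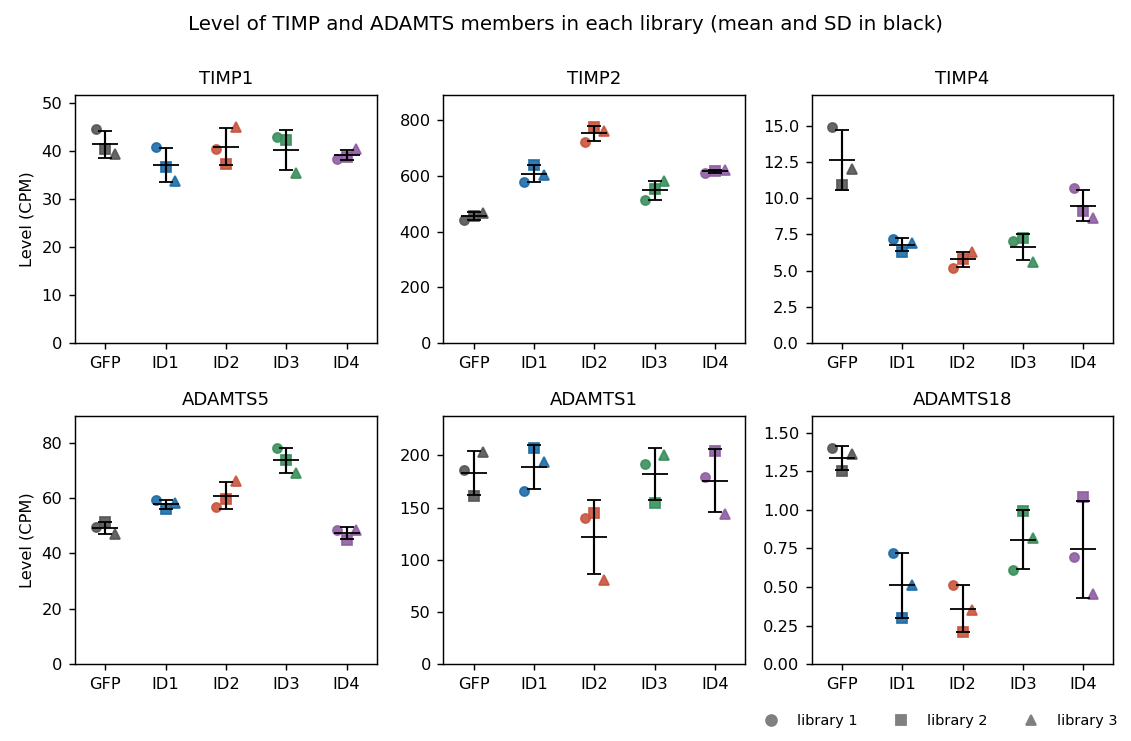
Level in CPM (vertical axis, linear, from 0) of 3 TIMP and 3 ADAMTS members in every library, by group, with the mean and SD of 3 libraries in black and the marker shape giving the library number. TIMP2 was at 454 ± 14.1 CPM in GFP and 751 ± 27.2 in ID2, TIMP4 at 12.6 ± 2.04 and 5.77 ± 0.538, and ADAMTS1 library 3 of ID2 at 81.1 CPM.

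Between the ID groups, which do not share the GFP libraries, 13 of 32 members differed between ID4 and ID2 (17.7% of all genes), 10 between ID4 and ID3 (10.8%) and 5 between ID4 and ID1 (4.57%). ID2 and ID1 differed in 8 members (17.9% of all genes), ID3 and ID1 in 6 (8.78%) and ID3 and ID2 in 7 (14.2%). Of the 8 MMPs, 5 were lower in ID4 than in ID2 (MMP1, MMP2, MMP3, MMP19 and MMP24), 4 lower than in ID3 (MMP1, MMP2, MMP3 and MMP24) and 1 lower than in ID1 (MMP3), and 0 were higher. The comparisons of ID4 with the other ID groups share the ID4 libraries, so a gene low in those libraries moves all of them together. ADAMTS5 was lower in ID4 than in each other ID group. ADAM7 and ADAM8 were each called in 4 of these 6 comparisons, and TIMP4 in the comparisons of ID4 with ID2 and with ID3. ADAMTS3, which removes the N-propeptide of procollagen, had 1, 3 and 5 counts in ID2 and 5, 14 and 14 in ID4. The log2 difference of ID4 from ID2 was 2.01 (standard error 0.58, adjusted p = 0.0188). No ID group was called against GFP, with its 12, 8 and 4 counts. The value nearest the threshold was -1.51 in ID2 (standard error 0.62, adjusted p = 0.0646).

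Genes that act with these proteases were taken as 7 lists. Of 11 tested genes for activation and cell-surface control, 3, 6, 6 and 4 rose and 0 fell in ID1, ID2, ID3 and ID4, with median log2 fold changes of 0.23, 0.32, 0.3 and 0.18. PLAU (urokinase), which starts plasmin formation, rose from 32.6 CPM in GFP to 82.0, 87.8, 72.8 and 67.2 CPM (log2 1.33, 1.43, 1.16 and 1.04). FURIN, which removes the propeptide of MMP14 and of ADAMs, rose by 0.50, 0.28, 0.55 and 0.65, and LRP1, an endocytic receptor for MMPs and TIMPs, by 0.36, 0.75, 0.71 and 0.66. Of 3 other tested metzincins, BMP1, a procollagen C-proteinase, rose by 0.58, 0.89, 0.87 and 0.43, and PAPPA by 0.44, 0.48 and 0.33 in ID1, ID3 and ID4.

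Of 7 tested partners of ADAM10 and ADAM17, 1 rose in each group, the tetraspanin TSPAN10 (log2 0.34, 1.10, 0.56 and 0.41), and 2, 2, 0 and 1 fell, among them TSPAN5 (log2 -0.24, -0.64 and -0.32 in ID1, ID2 and ID4). Of 11 tested ADAM substrates, 3, 2, 0 and 3 rose and 3, 4, 3 and 3 fell. TGFA, an EGF receptor ligand, fell in all groups (log2 -1.10, -0.95, -0.62 and -0.50). APP, the amyloid precursor protein, also fell in all groups (-0.18, -0.29, -0.17 and -0.16). EREG fell in ID1, ID3 and ID4 (-0.52, -0.57 and -0.83), and EPHB2 rose in ID1, ID2 and ID4 (0.46, 0.52 and 0.57). Of 2 tested proteoglycan substrates of ADAMTS proteases, VCAN (versican) rose by 0.41, 1.00, 0.64 and 0.64. BCAN (brevican), at 0.772 ± 0.213 CPM in GFP, fell in ID2 (log2 -1.52, adjusted p = 0.0278) and was at -1.29, -0.55 and -0.74 in ID1, ID3 and ID4 (adjusted p = 0.0736, 0.408 and 0.316). Of 2 tested ADAMTS-like genes, ADAMTSL1 fell in ID1 and ID2 (log2 -0.56 and -0.52). Of 11 AP-1 and ETS factors known at MMP promoters, 3, 1, 0 and 0 rose and 2, 4, 3 and 2 fell. JUN fell in all groups (-0.32, -0.57, -0.33 and -0.15), ETS1 fell in ID2, ID3 and ID4 (-0.54, -0.30 and -0.38), and FOSL1 rose in ID1 (0.22). All these calls had an adjusted p under 0.05, and the lists are read only against the shares of all genes given above.

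The 31 rows below the limit comprised 12 MMP, 11 ADAM, 7 ADAMTS and 1 TIMP gene. In 9 of them no library had a count. MMP9 (gelatinase B), known from inflamed and tumour tissue, had 2 counts over all 15 libraries and MMP10 had 1. MMP11, the highest of these rows, had 54. A count of 0 allows up to 0.27 CPM in the shallowest library, so lower levels of these genes were not detectable at this depth. In this bulk RNA, a higher count from more cells and from more RNA per cell cannot be told apart.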

How the data were processed

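RNA from 15 U87MG libraries was made into QuantSeq 3′ libraries, and the authors deposited a table of raw read counts per gene and normalized log2 values. The submitters' processing notes name Bowtie2 and BWA, and the files use hg19 (GRCh37). How reads were assigned to strands or to several genes is not given in the sources used here. The deposited counts were tested with edgeR 4.0.16 in R 4.3.3 (TMM scaling, quasi-likelihood F test, 1 mean per group, all 15 libraries) for 13665 genes with a mean of at least 5 counts, with Benjamini-Hochberg adjustment and a threshold of 0.05. CPM is the count divided by the TMM-scaled library total, times 1e6. A standard error is the log2 fold change divided by the square root of F. On simulated data for ID1 against GFP over 13665 genes, edgeR found 79 of 100 genes changed 2-fold and 96 of 100 changed 4-fold, with 14 false calls.

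The members, gene lists and tests were chosen with earlier results of these data known. Named by rule were the TIMP members, the 4 members with the highest CPM in each other family, members changed more than 2-fold, and members at or under 3 counts in 1 group and at a mean of 5 or more in another. Other members named were chosen after their values were seen. Alternatives were DESeq2 1.42.0, its size factors, limma 3.58.1 on the deposited log2 values, 4 other filters on low values, a replicate block, only the 2 groups compared, each library left out, and the library of each group that scored lowest on the main within-group axis left out, the last added after seeing the data. Replicate numbers did not pair the libraries. Positions are from GENCODE lifted to GRCh37, and promoters from RefSeq on GRCh38.p14.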

Additional observations from a re-analysis of the deposited data

How the results depend on the processing

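Of 1436 alternative values for 23 named members, 1345 kept their direction and side of the threshold, 46 lost a call, 13 gained one and 32 changed sign, in 15 results of which 0 had been called. The members called for any difference among the groups were 19 to 23 with 1 library left out, and those called against GFP numbered 12 to 14 in ID1, 15 to 17 in ID2, 10 to 12 in ID3 and 9 to 10 in ID4. Between ID groups the ranges were 8 to 10 for ID2 and ID1, 3 to 5 for ID3 and ID1, 2 to 6 for ID4 and ID1, 4 to 9 for ID3 and ID2, 9 to 13 for ID4 and ID2 and 7 to 8 for ID4 and ID3. The count for ID4 and ID1 was 3 without ID1 library 1, 2 without ID1 library 3 and 2 without ID4 library 2, that for ID3 and ID1 was 3 without ID1 library 2, and that for ID3 and ID2 was 4 without ID3 library 1. With no filter on low values, 14 members differed between ID2 and ID1 and 8 between ID4 and ID1, and with only the 2 groups in the fit 10 differed between ID3 and ID1 and 8 between ID4 and ID1. The cause was not tested. The shares of all genes under the alternatives are not given here, so these counts show only how calls moved between settings.

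Without the 5 lowest-scoring libraries, the log2 values that changed sign, none of them called, were -0.11 for ADAMTS13 in ID1, -0.01 for MMP24 in ID2, 0.01 for ADAM9 in ID2, -0.04 for ADAM15 in ID2, 0.01 for ADAMTS1 in ID3 and -0.05 for ADAMTS12 in ID4. With 1 library left out, values that changed sign ranged from 0.0 to 0.11 for MMP14, -0.19 to 0.05 for ADAM8, 0.0 to 0.33 for ADAM9 and -0.04 to 0.13 for ADAMTS1 in ID1. In ID2 they ranged from -0.04 to 0.03 for MMP24, -0.31 to 0.18 for ADAM9, -0.06 to 0.12 for ADAM15 and -0.09 to 0.05 for TIMP1. In ID3 they ranged from -0.15 to 0.29 for ADAM9, -0.04 to 0.06 for ADAM15, -0.1 to 0.1 for ADAMTS1 and -0.1 to 0.04 for TIMP1, and in ID4 from -0.18 to 0.06 for ADAMTS1 and -0.03 to 0.33 for ADAMTS12.

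The replicate numbers did not pair the libraries, since deviations of libraries with the same number correlated by -0.19 to 0.181 and 2 of 15 libraries correlated best with their own number. With the replicate number as a block, 20 members differed among the groups, 15, 16, 12 and 12 from GFP in ID1, ID2, ID3 and ID4, and 8, 6, 5, 6, 13 and 10 between ID2 and ID1, ID3 and ID1, ID4 and ID1, ID3 and ID2, ID4 and ID2, and ID4 and ID3. MMP12, MMP13, ADAM28 and ADAMTS9 were tested only with no filter and with a mean of 5 counts in 1 group.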
